A study of Homo sapiens with 6 samples.

Results

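The genes described here encode HLA class I molecules and the machinery that loads them with peptide, in TF-1 cells that carry a control vector or human PRL-3. Members were all probe sets annotated to HLA-B, HLA-C, HLA-E, HLA-F, B2M, TAP1, TAP2, TAPBP or NLRC5, alone or with other symbols. This gave 17 of 28869 probe sets for 8 of the 9 symbols. HLA-E was not analysed here, since no probe set carried that symbol. TAP1, TAP2 and TAPBP had 3 probe sets each, and B2M and NLRC5 had 1 each. The classical class I genes had no probe set of their own: 3 probe sets were shared by HLA-C and HLA-B and 3 by HLA-F and HLA-B, so no value below belongs to HLA-B or HLA-C alone.

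TF-1 is a human line of erythroid and myeloid progenitor character, labelled as acute myeloid leukaemia, which needs a cytokine to grow. Both groups grew in RPMI with serum and human interleukin-3, and total RNA was measured on a whole-transcript array. The control group (3 arrays, numbered 1 to 3) carried a control vector named pEGFP, and the PRL-3 group (3 arrays, numbered 4 to 6) carried human PRL-3, the phosphatase encoded by PTP4A3. The labels do not say whether either line was a clone or a pool, nor whether a group's arrays stand for separate cultures, so a p-value here reflects only how much these arrays scatter, and that scatter may be technical.

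Class I molecules carry peptides from inside the cell to its surface, where CD8 T cells read them and NK cells are held back by them. The proteasome cuts proteins, the transporter made of TAP1 and TAP2 moves the peptides into the endoplasmic reticulum, and tapasin, encoded by TAPBP, holds an empty class I molecule next to that transporter until it is filled. The heavy chain (HLA-B, HLA-C, HLA-E or HLA-F) needs the light chain, beta-2 microglobulin, encoded by B2M, to be stable. NLRC5 is the transactivator of class I genes and of B2M and TAP1. It acts through a promoter module shared by these genes, and interferon raises the whole group through nearby elements. Haematopoietic cells normally express class I, and leukaemic cells that lose it can be missed by T cells.

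The promoters are shown first because NLRC5 and interferon are known to act on class I genes through them; no motif searched was found in all 7 windows. RefSeq windows (GRCh38.p14) of 300 bases, from 250 before to 50 after the gene start, were matched for 7 of the 9 symbols, all but NLRC5 and HLA-E. Capitals mark matches, on either strand, to GAAANNGAAA (the interferon-stimulated response element in its repeated form), AGTTTC (one arm of that element), the NF-kappaB consensus, TGACGC (as in the X2 box) and ATTGG (the Y box, a reversed CCAAT). Matches of AGTTTC can overlap those of GAAANNGAAA.
HLA-B, chr6:31357130-31357429, minus strand: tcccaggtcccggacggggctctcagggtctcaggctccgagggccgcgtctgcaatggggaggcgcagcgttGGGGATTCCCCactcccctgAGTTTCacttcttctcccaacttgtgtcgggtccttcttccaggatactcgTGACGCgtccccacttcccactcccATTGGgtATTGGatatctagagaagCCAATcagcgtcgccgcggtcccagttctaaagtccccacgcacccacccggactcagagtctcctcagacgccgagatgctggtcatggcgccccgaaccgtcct
HLA-F, chr6:29723184-29723483, plus strand: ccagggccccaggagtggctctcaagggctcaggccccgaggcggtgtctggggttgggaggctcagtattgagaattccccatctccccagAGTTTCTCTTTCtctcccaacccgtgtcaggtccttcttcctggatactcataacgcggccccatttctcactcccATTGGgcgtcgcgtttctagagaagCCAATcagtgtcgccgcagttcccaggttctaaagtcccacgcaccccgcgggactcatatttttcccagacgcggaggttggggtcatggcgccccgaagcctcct
B2M, chr15:44711267-44711566, plus strand: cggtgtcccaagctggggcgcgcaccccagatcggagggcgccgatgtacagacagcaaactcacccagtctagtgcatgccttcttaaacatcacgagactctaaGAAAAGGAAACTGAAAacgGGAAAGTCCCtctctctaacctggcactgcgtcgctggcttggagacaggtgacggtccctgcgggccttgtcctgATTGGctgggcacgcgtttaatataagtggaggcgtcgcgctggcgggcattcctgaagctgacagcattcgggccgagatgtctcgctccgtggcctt
TAP1, chr6:32853655-32853954, minus strand: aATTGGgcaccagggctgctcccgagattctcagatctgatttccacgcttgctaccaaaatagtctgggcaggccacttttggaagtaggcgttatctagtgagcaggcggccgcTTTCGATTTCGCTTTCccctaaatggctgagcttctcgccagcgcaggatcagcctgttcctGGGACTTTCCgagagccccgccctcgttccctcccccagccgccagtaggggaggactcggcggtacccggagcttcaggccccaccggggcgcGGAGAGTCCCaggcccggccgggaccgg
TAPBP, chr6:33314029-33314328, minus strand: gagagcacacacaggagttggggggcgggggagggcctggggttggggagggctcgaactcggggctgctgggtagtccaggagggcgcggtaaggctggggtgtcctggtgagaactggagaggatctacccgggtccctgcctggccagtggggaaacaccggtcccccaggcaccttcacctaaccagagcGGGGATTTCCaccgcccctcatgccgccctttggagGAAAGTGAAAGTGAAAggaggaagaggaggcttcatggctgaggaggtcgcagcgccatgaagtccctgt
GAAANNGAAA was found in 5 of the 7 member promoters (B2M, HLA-F, TAP1, TAP2 and TAPBP) and in 3.57% of all 35116 promoter windows. The NF-kappaB consensus was found in 5 of 7 (B2M, HLA-B, HLA-C, TAP1 and TAPBP) against 11.3% of all, AGTTTC in 4 of 7 (B2M, HLA-B, HLA-C and HLA-F) against 14.8%, TGACGC in 3 of 7 (HLA-B, HLA-C and TAP2) against 9.14%, and ATTGG in 5 of 7 against 34.6%. In HLA-B the order from the far end was the NF-kappaB match, then AGTTTC, next TGACGC and last ATTGG, at 177, 157, 106 and 81 bases before the start. HLA-C had the same order at 172, 153, 105 and 80 bases for matches as written. A further ATTGG as written lay at 192 bases, upstream of all of them, and reversed matches, as CCAAT, at 95 and 56 bases. HLA-F had AGTTTC at 158 bases and ATTGG at 82 bases, with no match to TGACGC or the NF-kappaB consensus in this window. These are matches of letters, not measured binding. TAP1 has a second RefSeq start, whose window is not shown. PSMB9, the next gene, starts 487 bases from TAP1 and is read the other way.

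Before the members, the arrays were checked against their labels. PTP4A3 read 7.92, 8.03 and 7.97 in control and 10.81, 10.93 and 10.79 in PRL-3 arrays (log2 intensity), 7.33-fold higher with PRL-3 (adjusted p = 1.95e-05, limma). Among TF-1 markers, the median level of the 14 measured genes stood at the 83.3 percentile of all probe sets, against 33.5 for 14 lymphocyte and NK markers, 43.2 for 12 monocyte and dendritic markers and 45.1 for 13 stromal, epithelial and endothelial markers. Probe sets respond differently and the table has no detection call, so these percentiles are a rough guide. Over all probe sets 828 were higher with PRL-3 (2.87%) and 572 lower (1.98%) at adjusted p 0.05. For the members, control 3 and PRL-3 5 stood apart from the other arrays of their groups. Control 3 was the lowest control array in 16 of 17 member probe sets, against 35.6% of all probe sets, and PRL-3 5 the highest PRL-3 array in 15 of 17, against 41.8%. Both held in 15 of 17, against 22.3% of all; the exceptions were B2M and NLRC5. The median SD within the control group was 0.16 for member probe sets and 0.10 for all (log2). Each annotation's values without these arrays are given with it below; their part in the results was not otherwise tested.

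No member probe set passed the test between PRL-3 and control arrays: 0 of 17 were higher and 0 were lower at adjusted p 0.05 in limma over all probe sets, against the 2.87% and 1.98% above. At an unadjusted p under 0.05 there were 2, NLRC5 and 1 probe set of TAPBP, both lower with PRL-3, where 17.1% of all probe sets stood in either direction. A test with unequal variances, without sharing the spread across probe sets, also called 0 members, and called 4 probe sets in the whole table (0.0139%). Of the other settings, array weights called 7 of 17 members lower, where 7.16% of all probe sets were lower. NLRC5 alone was called among above-median, 1-symbol or brightest probe sets and without control 3. No setting called a member higher. The median difference over the 17 probe sets was -0.044 and over all probe sets -0.0088 (log2, PRL-3 minus control). The group mean was lower with PRL-3 in 14 member probe sets and higher in 3, all of TAP1; over all probe sets 53.1% were lower. These 17 are fewer measurements than they seem, because the 3 probe sets of an annotation gave nearly the same profile: after each was centred on its own mean they stayed within 0.0032 on every array for TAP1 and within 0.09 for HLA-C and HLA-B, the widest set. In RNA from a whole culture, fewer cells with a transcript and less transcript per cell cannot be told apart.

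**Figure D1:**
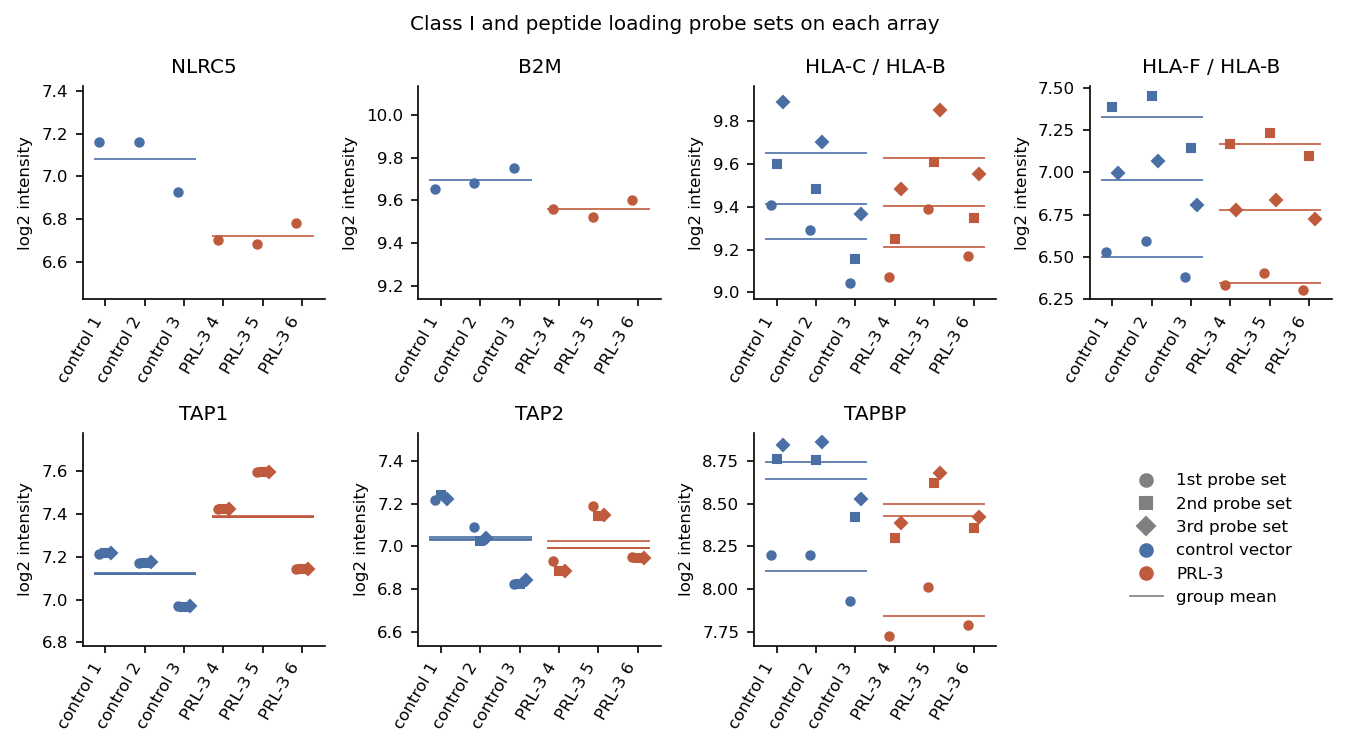
Log2 intensity of the 17 member probe sets on each of the 6 arrays, one panel per annotation; blue is control vector, orange is PRL-3, marker shapes are the probe sets of an annotation in order of their number, and lines are group means. Each vertical axis spans at least 1 log2 unit and has its own level. In NLRC5 and B2M all PRL-3 arrays lie below all control arrays, while the groups overlap in the other panels.

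NLRC5, the transactivator, had the largest difference of any member. Its probe set (7995926) read 7.16, 7.16 and 6.92 in control arrays 1 to 3 and 6.70, 6.68 and 6.78 in PRL-3 arrays 4 to 6 (log2 intensity). Every PRL-3 array lay below every control array, and the gap to the lowest of them, control 3, was smaller than the spread among the controls. Over all probe sets 10.6% had their groups apart in this direction. Means were 7.08 ± 0.14 and 6.72 ± 0.050 (SD, n = 3 arrays each), a difference of -0.36 ± 0.083 (log2, SE) with a 95% interval from -0.56 to -0.17. On the linear scale this was 1.28-fold lower with PRL-3, with an interval from 1.12 to 1.47. The adjusted p was 0.0584 in limma over all 28869 probe sets, above the threshold. By exact permutation over the arrays (two-sided) p was 0.1, which is as low as this design can reach.

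The call for NLRC5 depended on which probe sets were tested and on the arrays. It passed when the fit held only probe sets with exactly 1 symbol (adjusted p = 0.0413, limma; 3.07% of these were lower) or only the brightest of these for each of 18377 genes (adjusted p = 0.0396, limma), where 3.11% of genes were lower. It also passed among probe sets above the median level (adjusted p = 0.0498; 3.91% lower), with array weights (adjusted p = 0.0052; 7.16% lower) and without control 3 (-0.44, adjusted p = 0.023; 2.18% lower). Leaving out any other single array gave -0.39 to -0.32 (-0.34 without PRL-3 5), with adjusted p from 0.13 to 0.211 in limma, and leaving out control 1 and PRL-3 5 together gave -0.30 (adjusted p = 0.238). The sign was negative in all 16 fits. Leaving out or weighting arrays could not turn it, since the groups did not overlap, and several settings reused the same difference.

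**Figure D2:**
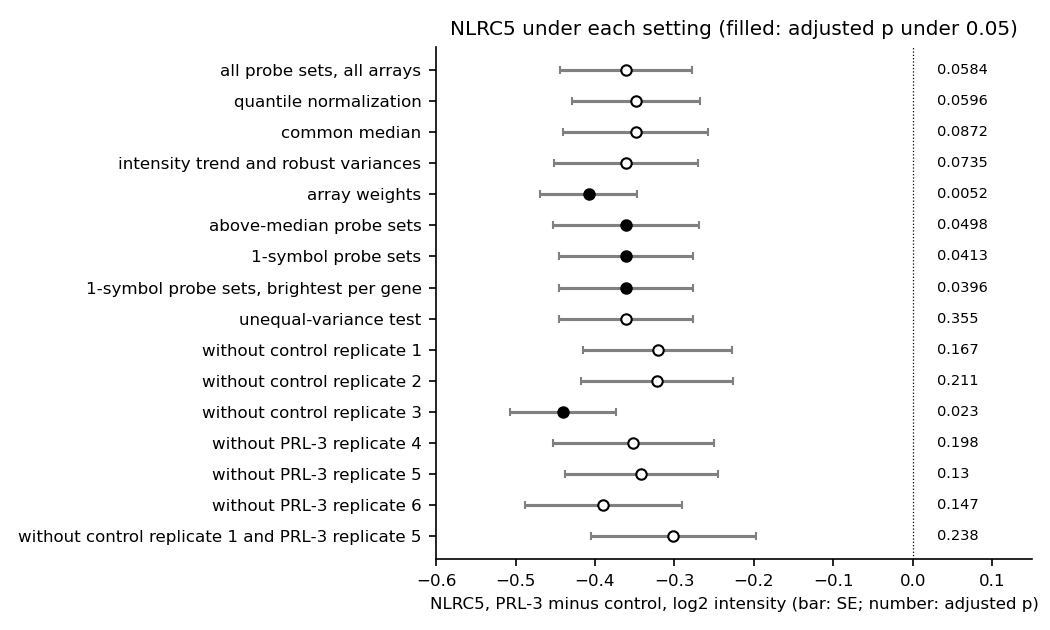
Difference in NLRC5 log2 intensity, PRL-3 minus control, under each of 16 settings, with bars of 1 SE and the adjusted p printed at the right. Filled points pass adjusted p 0.05, as 5 of the settings do. The difference lies between -0.44 and -0.30 in every setting. Settings that change only the test or the choice of probe sets repeat the difference of the fit over all probe sets and arrays.

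B2M, the light chain common to all class I molecules, was the other member whose groups did not overlap. Probe set 7983360 read 9.65, 9.68 and 9.75 in control arrays and 9.56, 9.52 and 9.60 in PRL-3 arrays (log2 intensity). All 3 PRL-3 arrays lay below all 3 controls, and control 3, low for the other members, was here the highest array. Non-overlap in this direction was thus seen in 2 of 17 member probe sets, near the 10.6% of all probe sets. The difference was -0.13 ± 0.06 (log2, SE; 95% interval -0.28 to 0.0098), 1.10-fold lower with PRL-3, and did not pass (adjusted p = 0.334, limma). The interval leaves room for B2M being up to 1.21-fold lower with PRL-3. With 1 array left out the difference ranged from -0.15 to -0.10, and it was -0.10 without control 3 and -0.11 without PRL-3 5.

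The probe sets shared by the heavy chain genes HLA-C and HLA-B differed little between groups. Probe set 8179731, whose RefSeq accessions belong to both genes, read 9.89, 9.70 and 9.36 in control and 9.48, 9.85 and 9.55 in PRL-3 arrays (log2 intensity). Control 1 and PRL-3 5 were the high arrays and control 3 the lowest, so the spread lay within the groups. The difference was -0.023 ± 0.153 (log2, SE; 95% interval -0.38 to 0.34; adjusted p = 0.972, limma). The other 2, 8124911 and 8178498, whose only RefSeq accession belongs to HLA-B, differed by -0.036 and -0.0092 (adjusted p = 0.94 and 0.987, limma). Their 95% intervals ran from -0.32 to 0.25 and from -0.34 to 0.32, so for the first of them any change from 1.25-fold lower to 1.19-fold higher is within the error. The sign of all 3 turned when control 1 or PRL-3 4 was left out, and without control 3 they stood at -0.14 to -0.17 and without PRL-3 5 at -0.11 to -0.14.

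HLA-F is a nonclassical heavy chain that can reach the surface without peptide and is read by NK cell receptors. The 3 probe sets it shares with HLA-B list RefSeq accessions of HLA-F only. Probe set 8179019 read 6.99, 7.07 and 6.81 in control and 6.78, 6.84 and 6.72 in PRL-3 arrays (log2 intensity). PRL-3 5 stood above control 3, so the groups overlapped on that pair of arrays. The difference was -0.18 ± 0.082 (log2, SE; 95% interval -0.37 to 0.018), and the other probe sets, 8117760 and 8177717, differed by -0.15 and -0.16. None passed, with adjusted p from 0.349 to 0.467 in limma, and without control 3 the 3 gave -0.21 to -0.25 (adjusted p from 0.117 to 0.166, limma). Without control 2 they gave -0.10 to -0.12 (adjusted p from 0.666 to 0.779, limma), and without PRL-3 5 -0.18 to -0.20. With array weights, a setting that called 7.16% of all probe sets lower, the 3 passed at -0.23 to -0.27 (adjusted p from 0.0291 to 0.0406).

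TAP1, one chain of the peptide transporter, was the only member with a higher mean in PRL-3 arrays. Its brightest probe set, 8180061, read 7.22, 7.18 and 6.97 in control and 7.43, 7.60 and 7.14 in PRL-3 arrays (log2 intensity). PRL-3 4 and PRL-3 5 were above every control, and PRL-3 6 lay within the control range. The difference was 0.27 ± 0.127 (log2, SE; 95% interval -0.031 to 0.57), 1.20-fold higher, and did not pass (adjusted p = 0.355, limma); probe sets 8125512 and 8178867 gave 0.27 each. Without control 3 it was 0.19, without PRL-3 5 it was 0.16 and without PRL-3 6 it was 0.39, so it moved with single PRL-3 arrays but kept its sign in all settings.

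TAP2, the other chain of the transporter, gave a different picture. Its brightest probe set, 8125483, read 7.22, 7.09 and 6.83 in control and 6.93, 7.19 and 6.95 in PRL-3 arrays (log2 intensity). The groups overlapped fully, and the difference was -0.021 ± 0.119 (log2, SE; 95% interval -0.30 to 0.26; adjusted p = 0.967, limma). Probe sets 8178841 and 8180034 gave -0.041 and -0.044. All 3 changed sign when control 1 or PRL-3 4 was left out, without control 3 they gave -0.13 to -0.14, and without PRL-3 5 -0.10 to -0.12.

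Since both chains were low on control 3 and high on PRL-3 5, their log2 ratio was also taken within each array, a comparison chosen after the values were seen. TAP1 minus TAP2 was 0.0046, 0.085 and 0.15 in control and 0.49, 0.41 and 0.20 in PRL-3 arrays. All PRL-3 arrays lay above all controls, by 0.050 between control 3 and PRL-3 6. The ratio was 1.22-fold higher with PRL-3 (difference 0.29 on the log2 scale, 0.22 to 0.37 with 1 array left out). These ratios are a description, with no test, and other pairs of genes were not compared.

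TAPBP encodes tapasin, the bridge between the transporter and class I. Its dimmest probe set, 8125713, read 8.20, 8.20 and 7.93 in control and 7.72, 8.01 and 7.79 in PRL-3 arrays (log2 intensity). Only PRL-3 5 reached into the control range, where it lay above control 3. The difference was -0.27 ± 0.108 (log2, SE; 95% interval -0.52 to -0.013), 1.20-fold lower with PRL-3, with adjusted p = 0.265 in limma. The brighter probe sets 8178977 and 8180166 differed by -0.22 and -0.25 (adjusted p = 0.466 and 0.374, limma). Their 95% intervals, from -0.51 to 0.075 and from -0.53 to 0.036, held 0, so 8125713 is the probe set of TAPBP with the largest difference. Without control 3 the 3 gave -0.33 to -0.36 and without PRL-3 5 -0.32 to -0.35. They were smaller without PRL-3 4, at -0.16 to -0.21 (adjusted p from 0.571 to 0.758, limma), and without control 1 or control 2, at -0.16 to -0.22 each. In the unequal-variance test the adjusted p was 0.524 to 0.675. With array weights, where 7.16% of all probe sets were lower, all 3 passed, at -0.36 to -0.39 (adjusted p from 0.0142 to 0.0286).

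**Figure D3:**
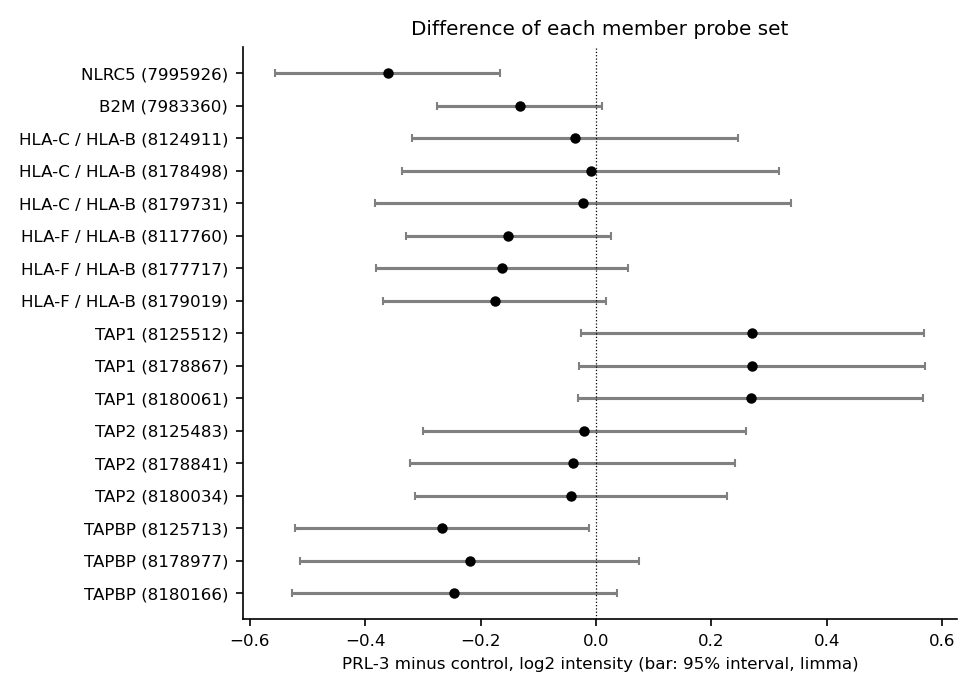
Difference in log2 intensity, PRL-3 minus control, of each of the 17 member probe sets, with limma's 95% interval (not adjusted for the number of probe sets). Only the intervals of NLRC5 and of TAPBP probe set 8125713 leave out 0; the TAP1 probe sets are the only ones above 0.

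The other genes of the pathway were taken as 8 lists, with 169 genes measured by a probe set of 1 symbol. Of these 6 were higher and 4 lower with PRL-3 at adjusted p 0.05 in limma, where 2.87% and 1.98% of all probe sets were. That background includes probe sets without a symbol. Among the brightest 1-symbol probe sets of 18377 genes, fitted alone, 842 genes were higher and 571 lower. In that fit 8 of the 169 were higher and 7 lower. In the list of 11 loading, trimming and editing partners 0 passed, and 4 had an unadjusted p under 0.05, as 17.1% of all probe sets did; the same share is the background for the counts at unadjusted p in the lists that follow. These 4, named after their values were seen, went both ways. The endoplasmic reticulum chaperones HSPA5 and PDIA4 differed by 0.32 and 0.25, the glucosyltransferase UGGT1 by -0.28 and TAPBPL by -0.35 (log2). In the same list, CALR, a chaperone of the loading complex, differed by 0.071 (adjusted p = 0.82, limma), and the trimming peptidases ERAP1 and ERAP2 by -0.16 and -0.040 (adjusted p = 0.316 and 0.908, limma). TAPBPL, which edits peptides outside the loading complex and is related to tapasin, read 7.04, 6.84 and 6.98 in control and 6.70, 6.56 and 6.56 in PRL-3 arrays, groups that did not overlap, with a difference of -0.35 ± 0.077 (log2, SE; adjusted p = 0.052, limma). Like NLRC5 it passed when only probe sets of 1 symbol were tested (adjusted p = 0.0384). With any 1 array left out its adjusted p was between 0.0875 and 0.187, above the threshold each time.

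In peptide supply 0 of 16 genes passed and 5 had an unadjusted p under 0.05. The immunoproteasome subunits PSMB8, PSMB9 and PSMB10 differed by 0.24, 0.24 and 0.068 (adjusted p = 0.594, 0.117 and 0.718, limma). PSMB8 ranged from 0.092 without PRL-3 5 to 0.37 without PRL-3 6, and PSMB10 from 0.031 without control 3 to 0.099 without control 1. PSMB9, the neighbour of TAP1, read 7.13, 7.11 and 7.26 in control and 7.40, 7.47 and 7.36 in PRL-3 arrays, with no overlap, as 10.7% of all probe sets did in that direction. Turnover genes (0 of 15) and neighbouring genes of the MHC region (0 of 46) had no calls, with 3 and 5 at an unadjusted p under 0.05. The median difference over the MHC neighbours was -0.058 (log2).

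Among transcription factors that act on class I, 1 of 22 fell and 0 rose. An unadjusted p under 0.05 (limma) was reached by 10 of these 22, 5 of 13 signalling genes and 10 of 28 interferon-stimulated genes. Over all probe sets the share was 17.1%. In 8 of the 22 all PRL-3 arrays lay below all controls, against the 10.6% of all probe sets, which include those without a symbol. Of the other lists this held for 8 of 28 interferon-stimulated genes, 3 of 11 loading partners and 2 of 18 class I-like genes. It held for 2 of 16 genes of peptide supply, 2 of 15 turnover genes, 3 of 46 MHC neighbours and 0 of 13 signalling genes. The opposite, all PRL-3 arrays above all controls, was seen in 10.7% of all probe sets. This was so for 1 of 22 transcription factors, 4 of 28 interferon-stimulated genes, 1 of 11 loading partners and 4 of 18 class I-like genes. For peptide supply it was 4 of 16, for turnover 0 of 15, for MHC neighbours 3 of 46 and for signalling 4 of 13. The transcription factor that fell was NFKB1, the p105 and p50 subunit of NF-kappaB, at -0.61 ± 0.08 (log2, SE). Its adjusted p was 0.00882 in limma, and 0.0641 without control 1 and PRL-3 5. RFX5, the DNA-binding partner of NLRC5 and CIITA, differed by -0.27 (adjusted p = 0.198), CIITA, the class II transactivator, by -0.19 (adjusted p = 0.186) and IRF1 by -0.16 (adjusted p = 0.704, limma). IRF1 stood at -0.32 without control 3 and at -0.071 without control 2. In interferon receptors and signalling 1 of 13 rose, IFNAR2, a chain of the type I interferon receptor (0.63, adjusted p = 0.00931, limma); it lost its call without control 2 (adjusted p = 0.0527). Of 28 interferon-stimulated genes 3 rose and 3 fell. The GTPase gene GBP2 rose by 1.31 and IFIT1 by 0.80, while XAF1 and TRIM22 dropped by 0.70 and 0.60 on the log2 scale (adjusted p from 0.000195 for GBP2 to 0.0101 for XAF1, limma). XAF1 and TRIM22 lost their call without control 2 (adjusted p = 0.0563 and 0.0503). The others were IFIT2, which rose by 0.43 (adjusted p = 0.0384, limma), and SAMD9, which dropped by 0.52 on the log2 scale (adjusted p = 0.0479, limma). IFIT2 kept its call only without control 3 when 1 array was left out, and SAMD9 only without control 1; otherwise the adjusted p reached 0.152 and 0.185.

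Of 18 class I-like genes 2 rose and 0 fell, where 2.87% and 1.98% of all probe sets did. In this list 4 had an unadjusted p under 0.05 (limma), against 17.1% of all probe sets. The 2 that rose encode stress-induced ligands of the NK cell receptor NKG2D. Other ligands of that receptor in the list did not pass: MICA (0.36), MICB (0.27), ULBP3 (-0.030), RAET1E (0.036), RAET1G (-0.082) and RAET1L (-0.038). ULBP2 read 5.98, 6.21 and 5.88 in control and 7.05, 6.78 and 6.74 in PRL-3 arrays, a rise of 0.83 ± 0.117 (1.78-fold, adjusted p = 0.0112, limma; 0.0649 without control 1 and PRL-3 5). ULBP1 rose by 0.79 ± 0.122 (1.73-fold, adjusted p = 0.0152, limma), and lost its call without control 1, control 2 or PRL-3 4 (adjusted p = 0.0514, 0.0832 and 0.0577). Their calls stand beside a heavy and light chain group in which none passed; the difference between these ligands and the class I chains was not tested.

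**Figure D4:**
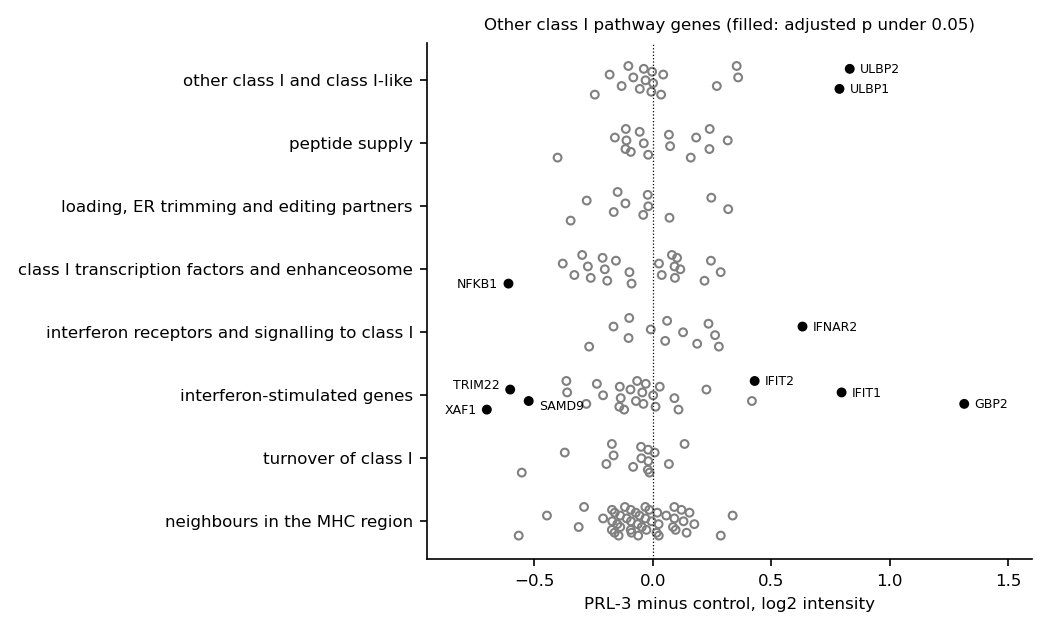
Difference in log2 intensity, PRL-3 minus control, of 169 other pathway genes in 8 lists, 1 point per gene and list; filled and named points pass adjusted p 0.05 in limma. Calls lie among class I-like genes, transcription factors, interferon signalling and interferon-stimulated genes, and most genes of every list lie between -0.5 and 0.5.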

How the data were processed

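Total RNA of 3 control and 3 PRL-3 TF-1 arrays was compared. Per the labels' protocols, extraction used Qiagen RNeasy columns and labelling used Nugen reagents and biotin. The deposited values are 1 intensity per probe set and array on a linear scale, with medians from 89.8 to 92.9. Summarisation, background correction and normalization by the authors are not given in the sources used here. Any scaling between arrays hides a shift common to most transcripts, so differences are relative to the bulk. The number of arrays limits the precision.

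Log2 values, with no offset or filter, were fitted with limma 3.58.1 in R 4.3.3 (lmFit, eBayes) over all 28869 probe sets, two-sided, with Benjamini-Hochberg adjustment at 0.05. Names came from the platform annotation, where 19310 probe sets had 1 symbol, 1752 several and 7807 none here. All member symbols matched a current RefSeq gene. A list gene was read from its brightest 1-symbol probe set. The text names every member, PTP4A3, a set of pathway genes whatever their result, up to 4 of the largest called differences per list, and the 5 genes closest in profile to NLRC5; some genes of that set are not analysed here. Members, lists and tests were chosen with earlier results of these data known. On simulated data for this comparison (200 of 28869 probe sets changed) the test recovered 54% of changes of 0.5 and 87% of 1 (log2), and 4 of its 145 calls were false. Simulated spreads were independent between probe sets, which those of these arrays are not. Changed probe sets were drawn from the whole table, where the median control SD was 0.10, against 0.16 for members. No member difference reached 0.5, so these shares do not give the recovery for members. The alternatives were 2 normalizations, array weights, robust variances with an intensity trend, 3 choices of probe sets, an unequal-variance test and arrays left out. Promoter motifs and figures were made with Python 3.11.15.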

Additional observations from a re-analysis of the deposited data

How the results depend on the processing

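No paired analysis was possible because the groups share no replicate number. Over 236 fits of member probe sets under the alternatives, 206 kept sign and side of the threshold. Another 11 moved past it with the same sign and 19 turned sign, all 19 with adjusted p of 0.849 or more in limma. Settings that changed only the test or the choice of probe sets kept the difference itself, so no sign could turn in them. Probe sets of 1 annotation also had nearly the same profile, so these fits are not separate checks. Of the members, 7 were lower with array weights and 1 (NLRC5) with only above-median, 1-symbol or brightest probe sets; leaving out 1 array gave 0 to 1 lower and 0 higher. Turned signs were those of HLA-C and HLA-B probe set 8178498 with a common median (0.0029) and, with 1 array left out, of 8124911 (-0.14 to 0.044), 8178498 (-0.14 to 0.084) and 8179731 (-0.17 to 0.095) and TAP2 probe sets 8125483 (-0.13 to 0.065), 8178841 (-0.14 to 0.064) and 8180034 (-0.14 to 0.049). CALR turned with array weights (-0.013) and in leaving out 1 array (-0.0199 to 0.127), and ERAP2 in leaving out 1 array (-0.11 to 0.031) and without control 1 and PRL-3 5 (0.068). Over all probe sets, higher and lower calls numbered 2098 and 2066 with array weights, 3 and 1 in the unequal-variance test, 440 and 191 without control 1 and PRL-3 5, and 308 to 689 and 141 to 630 with 1 array left out. Of the 169 pathway genes, array weights gave 12 higher and 28 lower, the unequal-variance test 1 and 0, 1-symbol or brightest probe sets 7 lower, and leaving out 1 array 3 to 7 higher and 1 to 6 lower. Array weights take their terms from these same arrays, the smaller tables adjust over a chosen part of the probe sets, and leaving out arrays leaves fewer samples. Other causes were not tested. Both normalizations moved the median difference of all probe sets by at most 0.012. Without detection calls, signal over background is unknown.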

Other observations

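The genes whose profile over the 6 arrays lay closest to that of NLRC5, among 18377 genes and by the root mean square distance of centred log2 values, were DDX60L (0.022), EIF4ENIF1 (0.024), GABPB2 (0.029), ASXL1 (0.029) and SLFN14 (0.034); the median distance over all genes was 0.22. Their differences ran from -0.37 for GABPB2 to -0.33 for ASXL1 (log2), and DDX60L alone passed over all probe sets (adjusted p = 0.0436, limma).

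Of the TF-1 markers 2 rose and 1 fell among 14 measured. An unadjusted p under 0.05 (limma) was reached by 9 of the 14, against 17.1% of all probe sets. Those of the 9 without a call went both ways, such as CSF2RB (-0.57) and CD34 (-0.44) against IL3RA (0.49) and GATA2 (0.47). KIT, the stem cell factor receptor, rose by 1.01 (log2), CSF2RA, a chain of the GM-CSF receptor, by 0.27, and TFRC, the transferrin receptor, dropped by 0.52; CSF2RA lost its call whichever single array was left out (adjusted p from 0.0897 to 0.171, limma). ITGAX, an integrin of myeloid and dendritic cells, was the 1 of 12 monocyte and dendritic markers that rose (0.41, adjusted p = 0.0148, limma); without control 1, control 2, PRL-3 4 or PRL-3 6 its adjusted p was 0.0509 to 0.0799. Lymphocyte and NK markers (0 of 14) and stromal markers (0 of 13) had no calls, with 0 and 2 at an unadjusted p under 0.05. Their part in the class I values was not tested.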
